A study of Mus musculus with 4 samples.

Results

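The probes described here were designed DNA oligos whose only dipyrimidines, meaning pyrimidines side by side on 1 strand, lay opposite the strand listed in the array files, with 1 of them at an edge of a stretch of 4 varied bases. In 21 libraries those 4 bases ended the probe name. Names were kept when the 4 bases read purine, purine, pyrimidine, purine (left edge) or purine, pyrimidine, purine, purine (right edge). This gave 32 endings per library and 672 of 6126 probe names, with 672 distinct sequences of 5480, and 64 of these sequences were also printed under a name outside the set. The counts of steps bore out the label, since 0 dipyrimidines lay on the listed strand in every one of the 672 probes.

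The series measured binding of antibodies against 2 UV photoproducts to such probes on irradiated and non-irradiated arrays. The anti-CPD antibody, against cyclobutane pyrimidine dimers, was diluted 1 in 400 and used on a UV array and a non-UV array, and the anti-6-4PP antibody, against 6-4 photoproducts, was diluted 1 in 80 and used likewise. Each of the 4 groups held 1 array, so no difference between arrays has a replicate check, and the antibodies' levels cannot be told apart from dilution and scanner setting. The titles of both 6-4PP arrays name the condition opposite to the array condition field, which the file names follow and which was used. The labels name mouse as the organism, but the probes were synthetic. Values are fluorescence intensities, taken as the median of a name's 10 replicate spots on 1 array, and the spread of those spots is technical.

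UV light joins neighbouring pyrimidines on the same DNA strand. In a cyclobutane dimer the bases are linked by a cyclobutane ring, and this photoproduct is known to form readily at TT. A 6-4 photoproduct links the bases by a covalent bond and is known to form readily at TC. Both distort DNA and are removed by nucleotide excision repair, and antibodies against them are standard tools for measuring UV damage.

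The purine pair at the edge of the varied bases set the dipyrimidine on the opposite strand, so that AA gave TT, GA gave TC, AG gave CT and GG gave CC. The following 8 probes, of a library named for MITF (a transcription factor that binds E-box sites) with the edge dipyrimidine as the only one in the probe, show each type at the left edge and then at the right edge. The listed strand is printed from 5′ to 3′, and capitals mark the 4 varied bases.
MITF_Ex_ebox_59_AATA: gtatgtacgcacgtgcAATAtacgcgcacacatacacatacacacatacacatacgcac
MITF_Ex_ebox_59_GATA: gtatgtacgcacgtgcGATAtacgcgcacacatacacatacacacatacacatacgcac
MITF_Ex_ebox_59_AGTA: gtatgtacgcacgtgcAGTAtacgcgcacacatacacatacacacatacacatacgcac
MITF_Ex_ebox_59_GGTA: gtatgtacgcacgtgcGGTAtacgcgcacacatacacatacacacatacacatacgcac
MITF_Ex_ebox_59_ATAA: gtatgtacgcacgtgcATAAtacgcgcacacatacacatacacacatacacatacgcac
MITF_Ex_ebox_59_ATGA: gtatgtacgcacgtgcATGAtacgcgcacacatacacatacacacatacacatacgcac
MITF_Ex_ebox_59_ATAG: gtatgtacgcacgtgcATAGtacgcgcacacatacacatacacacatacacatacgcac
MITF_Ex_ebox_59_ATGG: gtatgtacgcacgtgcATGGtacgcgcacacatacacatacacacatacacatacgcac

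The constant bases alternated purine and pyrimidine, so further dipyrimidines could arise only where the varied bases met them, and this sorted the 672 probes into 4 arrangements. The edge dipyrimidine stood alone in 128 probes from 4 libraries of 59 bases whose varied bases lay between C and T, as in the probes above. A further step, meaning a pair of neighbouring pyrimidines, lay apart at the other edge in 208 probes from 13 libraries of 60 bases. In 208 further probes of the same 13 libraries the neighbouring constant purine lengthened the edge dipyrimidine to a run of 3 pyrimidines, which holds 2 steps. The remaining 128 probes, from 4 libraries of 59 bases with purines on both sides, held a run of 3 and a step apart, which makes 3 steps. The same ending, AATA, is shown here on the backbones of these arrangements, which differ in the constant bases that meet the capitals. The first has its further step apart, the middle ones have a run of 3, and the last has both.
MITF_Ex_ebox_60_AATA: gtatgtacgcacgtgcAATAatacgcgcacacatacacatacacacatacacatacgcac
MITF_ebox_60_AATA: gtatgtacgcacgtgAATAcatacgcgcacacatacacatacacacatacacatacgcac
p53_60_AATA: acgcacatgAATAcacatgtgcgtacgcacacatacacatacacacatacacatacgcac
MITF_ebox_59_AATA: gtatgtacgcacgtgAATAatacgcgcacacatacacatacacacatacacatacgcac
Sites for p53, a tumour suppressor and transcription factor, and for TBP, which binds the TATA box, formed the other backbones. Sequences of single probes are given where their values turn on them.

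All 672 probes were brighter on the UV array than on the non-UV array with both antibodies. With the anti-CPD antibody the median probe had an intensity of 3782.5 on the UV array (range 993.5 to 10627), against 29 on the non-UV array (25 to 328), a median log2 difference of 7.03. Over all 6126 names that difference was 7.14, and over the 214 names without a dipyrimidine it was 6.38. With the anti-6-4PP antibody the median probe had 11632.25 on the UV array (3600.5 to the scanner's ceiling of 65535), against 55 on the non-UV array (33.5 to 427), a difference of 7.86, beside 8.17 over all names and 6.51 over names without a dipyrimidine. Reading the condition of the 6-4PP arrays from their titles turns the sign of that difference.

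The replicate spots of a probe had a median SD of 0.68 on the log2 scale on the irradiated CPD array, 0.20 on the CPD array without UV, 0.37 on the irradiated 6-4PP array and 0.16 on the 6-4PP array without UV. After the deposited spatial adjustment the SD on the irradiated CPD array was 0.29. The 64 probes printed again under another name differed from that copy by a median of 0.26 on the irradiated CPD array and 0.11 on the irradiated 6-4PP array. Differences on the irradiated CPD array are therefore read over matched sets of probes and not probe by probe.

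A probe was counted as above background when its intensity was at least 2-fold over the median of names without a dipyrimidine on the same array, which was 2336.5 on the irradiated CPD array and 4825.25 on the irradiated 6-4PP array. On the irradiated CPD array 234 of the 672 probes passed (34.8%), where 43.2% of all names did. On the irradiated 6-4PP array 417 passed (62.1%), where 72.9% of all names did. Both shares lay below those of all names, among which were probes with more dipyrimidines and with dipyrimidines on the listed strand. On the CPD array without UV 2 probes passed, where 0.898% of all names did, and on the 6-4PP array without UV 2 passed, where 0.049% of all names did.

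Probes with more steps were brighter after UV, though each number of steps came from libraries of its own, so steps and backbone cannot be told apart. For CPD after UV, the median was 4985.5 with 3 steps, 3707 in a run of 3, 3901.25 with a step apart and 2976.5 alone. For 6-4PP after UV, it was 21250 with 3 steps, 12479.25 in a run of 3, 9844.75 with a step apart and 8025.5 alone. The medians of the 4 arrangements lay between 28.5 and 29.75 on the CPD array without UV and between 53 and 58 on the 6-4PP array without UV. With anti-CPD after UV, 71 of 128 probes with 3 steps (55.5%) and 58 of 208 with a run of 3 (27.9%) were above background. So were 75 of 208 with a step apart (36.1%) and 30 of 128 alone (23.4%), where 43.2% of all names passed. The corresponding counts on the irradiated 6-4PP array were 118 (92.2%), 146 (70.2%), 105 (50.5%) and 48 (37.5%), where 72.9% of all names passed.

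With the edge dipyrimidine alone, the antibodies ranked the types differently. On the irradiated CPD array the 32 TT probes had a median of 5380.5, TC 3658, CT 2317.25 and CC 2167.75, so CT and CC lay just below the 2336.5 of names without a dipyrimidine. With anti-6-4PP after UV, TC was highest with 17204, followed by TT with 9991.25, CC with 7920 and CT with 5518.75. On the non-UV arrays the medians of the 4 types lay between 28 and 29.25 for CPD and between 56.25 and 58.75 for 6-4PP. The probes above background on the irradiated CPD array were 20 of 32 TT and 10 of 32 TC, with 0 of 32 CT and 0 of 32 CC. On the irradiated 6-4PP array they were 18 TT, 25 TC, 0 CT and 5 CC. The shares of TT and TC were 62.5% and 31.25% for CPD, where 43.2% of all names passed. For 6-4PP the shares of TT, TC and CC were 56.25%, 78.1% and 15.6%, where 72.9% of all names passed.

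In the 8 printed probes, on 1 backbone, TT had the highest median for CPD at each edge and TC the highest for 6-4PP. MITF_Ex_ebox_59_AATA, with TT at the left edge, had 5750 on the irradiated CPD array, against 26.5 on the CPD array without UV, and 10252 on the irradiated 6-4PP array, against 69 on the 6-4PP array without UV. MITF_Ex_ebox_59_GATA, with TC in place of TT, had 2255.5 against 29 for CPD and 16472 against 59 for 6-4PP. Spots of these probes overlapped after UV, between 2094 and 7548 for TT and between 776 and 6243 for TC with CPD, and between 6200 and 12212 for TT and between 12067 and 18909 for TC with 6-4PP. MITF_Ex_ebox_59_AGTA, with CT, had 1947 against 28.5 for CPD and 3758.5 against 64 for 6-4PP. MITF_Ex_ebox_59_GGTA, with CC, had 2058.5 against 27.5 for CPD and 7067.5 against 54.5 for 6-4PP. For 6-4PP after UV, where spots ran between 2367 and 10416 for CT and between 2399 and 10118 for CC, these probes overlapped each other, while the spots of the TC probe, between 12067 and 18909, lay above both.

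At the right edge of the same backbone MITF_Ex_ebox_59_ATAA, with TT, had 5770 on the irradiated CPD array, against 29.5 on the CPD array without UV, and 13404.5 on the irradiated 6-4PP array, against 67.5 on the 6-4PP array without UV. MITF_Ex_ebox_59_ATGA, with TC, had 3644.5 against 27.5 for CPD and 22703.5 against 65.5 for 6-4PP. The order of TT and TC was that of the left edge with each antibody. For CPD, CT lay above CC at the right edge and below it at the left edge. MITF_Ex_ebox_59_ATAG, with CT, had 3383 against 27 for CPD and 8000 against 58 for 6-4PP, and MITF_Ex_ebox_59_ATGG, with CC, had 2352.5 against 27.5 for CPD and 9975 against 56.5 for 6-4PP. The spots of ATGA on the irradiated 6-4PP array ran between 7608 and the ceiling of 65535, the widest spread of the 8.

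Matched pairs, in which only the dipyrimidine differed, gave the size of these differences in the 4 libraries with the edge dipyrimidine alone. TT minus TC was 0.40 on the log2 scale on the irradiated CPD array, positive in 25 of 32 pairs and in all 4 libraries, and it exceeded the spot SD in 7 pairs. With anti-6-4PP after UV, TT minus TC was -0.75, positive in 2 of 32 pairs and in 0 of 4 libraries, and it exceeded the spot SD in 25 pairs. The 4 library medians lay between 0.27 and 0.46 for CPD and between -0.77 and -0.71 for 6-4PP. With the spatially adjusted intensity TT minus TC for CPD was 0.52 and was positive in 32 of 32 pairs. Without that adjustment the CPD difference depended on the edge. It was 0.58 at the left edge, positive in 14 of 16 pairs and 4 of 4 libraries. At the right edge it was 0.08, positive in 11 of 16 pairs and 3 of 4 libraries.

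For CPD after UV, TT exceeded CT by 0.98 and CC by 1.18, each in 31 of 32 pairs, and TC exceeded CT by 0.69 in 27 pairs and CC by 0.66 in 28. CT minus CC had a median of 0.0042, positive in 16 of 32 pairs. With the spatially adjusted intensity it was 0.18, positive in 28 of 32 pairs and in 4 of 4 libraries. On the irradiated 6-4PP array TC exceeded CT by 1.58, and it exceeded CC by 1.14 in 32 of 32 pairs. TT exceeded CT by 0.82 and CC by 0.41. CT minus CC was -0.46, positive in 4 of 32 pairs. On the non-UV arrays the size of the type differences with the dipyrimidine alone was at most 0.08.

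Over all 168 matched pairs of the 21 libraries, in which most pairs held further steps, TT minus TC was 0.40 on the irradiated CPD array and positive in 21 of 21 libraries. TT minus CC was 0.91 and TC minus CC 0.48, each positive in 21 libraries, and CT minus CC was 0.33. For 6-4PP after UV, TT minus TC was -0.29, positive in 6 of 21 libraries, and TC minus CT was 0.42, positive in 14. In a run of 3, replacing the purine next to the constant base also changed the type of the overlapping step, so these pairs compare whole probes and not the edge step by itself.

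Signal after UV differed with the base 5′ of the dipyrimidine. In left-edge probes with the dipyrimidine alone, A minus G on the 5′ side was 1.36 for TC, 0.87 for TT and 0.66 for CC on the irradiated 6-4PP array, each positive in 8 of 8 pairs, and 0.03 for CT, positive in 4 of 8. The context ATCG had a median of 16768 (15409.5 to 20334.5), against 6944.25 for GTCG (5295.5 to 10261), and the ranges did not overlap. With anti-CPD after UV, A minus G was 0.84 for TT in 8 of 8 pairs and 0.73 for TC in 6 of 8, with 0.04 for CT and 0.01 for CC. With the spatially adjusted intensity TT gave 0.68 and TC 0.64, while CT gave 0.11 and CC 0.18. ATTG had a median of 5929.25 (4839.5 to 6592.5), against 3225.75 for GTTG (1784 to 3723.5), again with no overlap. Over all left-edge probes of the 21 libraries A minus G was 0.33 for CPD, positive in 20 libraries, and 0.70 for 6-4PP, positive in 21, and for TC on the irradiated 6-4PP array it was 1.09 and positive in 42 of 42 pairs. In a run of 3 it was 0.28 for CPD in 46 of 56 pairs and 0.31 for 6-4PP in 53 of 56. In probes with a step apart the same base also lay 3′ of the second step. The sides cannot be told apart there, and probes with a step apart enter the values over all left-edge probes.

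The base 3′ of the dipyrimidine was compared in right-edge probes, with A on the 5′ side throughout where the dipyrimidine stood alone. With anti-6-4PP after UV, A minus G on the 3′ side was 0.54 for TC and 0.52 for TT, each positive in 8 of 8 pairs, 0.32 for CC in 7 of 8 and 0.16 for CT in 4 of 8. The context ATCA had a median of 25020.75 (22703.5 to 29007), against 17423.25 for ATCG (16115.5 to 19024), and ATTA had 14201.5 (13404.5 to 16720), against 9585.5 for ATTG (9128.5 to 10989.5). Neither pair of ranges overlapped. On the irradiated CPD array the difference was 0.56 for TC, 0.37 for TT and 0.38 for CT, positive in 6, 7 and 6 of 8 pairs, and -0.29 for CC, positive in 3 of 8. With the spatially adjusted intensity these differences were 0.20 for TC, 0.29 for TT, 0.13 for CT and -0.06 for CC. ATCA had a median of 5468.25 (3579.5 to 6163.5), against 3728 for ATCG (2649 to 5279), and these ranges overlapped. Over all right-edge probes A minus G was 0.29 for CPD, positive in 19 of 21 libraries, and 0.55 for 6-4PP, positive in 20. By arrangement it was lowest in a run of 3, at 0.05 for CPD in 29 of 48 pairs and 0.24 for 6-4PP in 34 of 48. With a step apart it was 0.47 for CPD in 52 of 56 pairs and 0.87 for 6-4PP in 56 of 56. In such probes the same base also lay 5′ of the second step. The sides cannot be told apart there, and probes with a step apart enter the values over all right-edge probes. The difference between arrangements was not tested.

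The dipyrimidine was set at the left and at the right edge within each library. With the dipyrimidine alone, left minus right was -0.28 on the irradiated CPD array, positive in 17 of 64 pairs, and -0.52 on the irradiated 6-4PP array, positive in 5 of 64, and 0 of 4 libraries were positive with either antibody. In these libraries the constant bases fixed G on the 3′ side at the left edge and A on the 5′ side at the right edge. Where both edges carried A on the 5′ side and G on the 3′ side, left minus right was 0.05 for CPD, positive in 19 of 32 pairs, and -0.05 for 6-4PP, positive in 13 of 32, and 1 of the 32 pairs exceeded the spot SD for 6-4PP. In that context TC had a median of 16768 at the left edge and 17423.25 at the right edge on the irradiated 6-4PP array, and TT had 10209.75 at the left edge and 9585.5 at the right edge.

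Over all 336 matched pairs left minus right was 0.04 on the irradiated CPD array, positive in 11 of 21 libraries, and -0.02 on the irradiated 6-4PP array, positive in 13. CT stood apart with 0.41 on both UV arrays. In the 7 libraries of 60 bases with a purine on the left, where a left edge lies in a run and a right edge does not, CT was higher at the left edge by 1.38 on the irradiated 6-4PP array in 28 of 28 pairs. Within a library of 60 bases, edge and arrangement cannot be told apart.

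In the runs of 3 that made up the whole of a probe's dipyrimidines, levels differed with the order of the bases. On the irradiated 6-4PP array CTC had a median of 23053.75 (15372 to 30761) over 28 probes of 7 libraries, and TCT had 11081 (6233 to 15200) over 24 probes of 6 libraries. Both runs consist of a CT step and a TC step, and their ranges did not overlap. They were never in the same library at the same edge, so the backbone differed with them. The other runs had medians of 16547.75 for CTT, 14746.75 for TTC, 12291 for TCC, 12057 for TTT, 9132.25 for CCC and 6969.25 for CCT. For CPD after UV, the order was TTT with 5853.5, CTT 5162.5, CTC 4384.5, TTC 4092.5, TCT 3592.75, TCC 3173, CCT 2115.5 and CCC 2091.5. Every run with TT lay above every run without it there except for CTC, which lay above TTC.

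Set against probes of the same libraries that held the same 2 step types apart, a run of 3 differed by -0.12 on the irradiated CPD array, positive in 5 of 13 libraries, and by 0.07 on the irradiated 6-4PP array, positive in 9 of 13. For the pair CT and TT the run was higher by 1.05 on the irradiated 6-4PP array in 4 of 4 libraries, and for CT and TC it was higher by 0.63 in 9 of 13. For TC and TT on the irradiated CPD array the run was -0.27 relative to the steps apart, positive in 0 of 9 libraries.

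In probes with a step apart, the type of that second step could be changed while the edge dipyrimidine stayed the same. For 6-4PP after UV, TC minus CC at the second step was 0.71 in 40 of 40 pairs, TT minus CT 0.88 in 16 of 16, TT minus TC -0.78, positive in 1 of 32, and CT minus CC -0.49, positive in 0 of 16. With anti-CPD after UV, TT minus CT was 1.02 in 16 of 16, TC minus CC 0.50 in 35 of 40, TT minus TC 0.30 in 27 of 32 and CT minus CC -0.03, positive in 7 of 16. TT was not set against CC, nor TC against CT, at the second step, and the comparisons came from different libraries, so no full order of the types is given. On the non-UV arrays these differences lay between -0.04 and 0.08.

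The number of TC steps moved with the 6-4PP signal and the number of TT steps with the CPD signal. With anti-6-4PP after UV, the median was 9261 over 338 probes with 0 TC steps, 15422 over 292 with 1 and 28025 over 42 with 2. Among probes with 3 steps it was 15254.5, 24353.75 and 57508.75 with 0, 1 and 2 TC steps, and the last of these rested on 24 probes of 2 libraries. On the irradiated CPD array the median was 2963 over 404 probes with 0 TT steps, 5145.5 over 208 with 1 and 6588 over 60 with 2. Within probes of 3 steps it was 3595.75, 5584.25 and 7269.75. Over all 672 probes the other antibody's medians rose too. CPD had 3338.75, 3897.25 and 4617.75 with 0, 1 and 2 TC steps, and 6-4PP had 9942.25, 14075 and 15143.75 with 0, 1 and 2 TT steps. Within probes of 3 steps these were 5652.5, 4899 and 4401 for CPD, and 18331.75, 23879.25 and 20802 for 6-4PP. Medians over all probes mix numbers of steps and libraries.

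The scanner's ceiling was reached by the medians of 13 probes on the irradiated 6-4PP array, whose values are lower bounds. All 13 held a run of 3 and a step apart, 7 in the library MITF_ebox_59 and 6 in MITF_sebox_59, and 10 of them held 2 TC steps and 3 held 1. The pair below, which differ before the capitals, were both at the ceiling.
MITF_ebox_59_AGTA: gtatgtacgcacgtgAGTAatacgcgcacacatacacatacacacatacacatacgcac
MITF_sebox_59_AGTA: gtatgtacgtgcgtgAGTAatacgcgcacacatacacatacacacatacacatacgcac
Below the ceiling the brightest probes on the irradiated 6-4PP array were MITF_ebox_59_ATGA with 64339, MITF_ebox_59_GATG with 62592.5 and MITF_ebox_59_ATAA with 61225. Each of these also had spots at the ceiling. The dimmest were MITF_Ex_ebox_59_AACA with 3600.5, MITF_Ex_ebox_59_AGTA with 3758.5 and MITF_Ex_ebox_59_GGCG with 3970, all with the dipyrimidine alone.

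For CPD after UV, the brightest probes were TBP_59_ATGA with 10627, TBP_MUT_59_ATAA with 10075 and MITF_sebox_59_ATAA with 9862, each with 3 steps. The dimmest were TBP_MUT_E60_AGTG with 993.5, p53_mut_60_GCGG with 1038.5 and TBP_E60_GGCA with 1066.5, which held 2 steps each. The dimmest had spots between 636 and 3328, and left-edge CT probes of the same arrangement reached 7405. The brightest and the dimmest are shown for their bases around the capitals. A C on the left kept the edge dipyrimidine of the dimmest from lengthening, and whether this bears on its level was not tested.
TBP_59_ATGA: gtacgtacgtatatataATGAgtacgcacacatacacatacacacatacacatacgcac
TBP_MUT_E60_AGTG: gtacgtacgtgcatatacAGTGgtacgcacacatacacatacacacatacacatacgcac
Among libraries the median on the irradiated CPD array ran between 2632 in MITF_Ex_ebox_59 and 5284 in TBP_59, and on the irradiated 6-4PP array between 7414.25 in MITF_Ex_ebox_59 and 27430.5 in MITF_ebox_59.

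The strand was compared by setting the 672 probes beside 672 names whose edge dipyrimidine lay on the listed strand (pyrimidines in place of purines in the ending). Opposite minus listed strand was -0.20 on the irradiated CPD array, positive in 6 of 21 libraries, and -0.28 on the irradiated 6-4PP array, positive in 7. At the same edge of a library the strands differed in arrangement, so strand and arrangement cannot be told apart in these values. With the arrangement matched in libraries of 60 bases, the opposite strand at an edge was set against the listed strand at the other edge. The constant base that completed the run or the second step was not matched, so strand and those bases cannot be told apart. For TT, opposite minus listed strand was -0.53 on the irradiated CPD array with a step apart, positive in 0 of 13 libraries, and -0.46 in a run of 3, positive in 1 of 13. On the irradiated 6-4PP array it was -0.35 with a step apart, positive in 3 of 13, and -0.74 in a run of 3, positive in 0 of 13. Other types went both ways for CPD. With a step apart, medians on the opposite and listed strand were 3055 and 2538.75 for CC, 4097.25 and 3933 for TC, and 3262.5 and 3480.5 for CT. In a run of 3, CC and CT were higher on the opposite strand and TC was lower. For 6-4PP after UV, the medians of CC, CT and TC over both edges were lower on the opposite strand in both arrangements. There, CT in a run of 3 had 15031.25 and 32599.25, but the edges differed. The opposite strand at the left edge had 21217.5, against 39787.75 for the listed strand at the right edge. The opposite strand at the right edge was higher, with 9722.75 against 7822.25 for the listed strand at the left edge. TT was also lower on the opposite strand without UV for CPD, where the difference was -0.28 over the 21 libraries, positive in 0. The arrangement was not matched in that value.

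With the dipyrimidine alone the strands fell in different libraries, so backbone and strand cannot be told apart there. TT had a median of 5380.5 on the opposite strand and 7572.5 on the listed strand on the irradiated CPD array, and TC had 3658 on the opposite strand and 3565.25 on the listed strand. In the context ATTA the CPD UV medians were 5988.5 on the opposite strand and 9359.5 on the listed strand, beside CPD non-UV medians of 31.25 on the opposite strand and 40 on the listed strand. For 6-4PP after UV, TC had 17204 on the opposite strand and 15688.75 on the listed strand. These 6-4PP medians mix contexts, of which GTCA occurred only on the listed strand. In each shared context TC was lower on the opposite strand. ATCA had 25020.75 on the opposite and 32915 on the listed strand, ATCG 17204 and 22885.75, and GTCG 6944.25 and 8809.75. How double strands were made, and which strand was attached to the array, is not given in the sources used here.

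Only 2 of the 672 probes, both in the library MITF_ebox_60, were above background on the non-UV arrays, and they were so with both antibodies. MITF_ebox_60_GTAA had 328 on the CPD array without UV with spots between 251 and 425, and 427 on the 6-4PP array without UV with spots between 354 and 558. MITF_ebox_60_GTGA had 96.5 on the CPD array without UV with spots between 73 and 110, and 146 on the 6-4PP array without UV with spots between 118 and 176. The other 14 right-edge endings of the library had at most 31 on the CPD array without UV and at most 61 on the 6-4PP array without UV. All spots of both probes lay above every spot of these 14, of which the highest were 71 and 77. The probes are printed with the same ending on other backbones.
MITF_ebox_60_GTAA: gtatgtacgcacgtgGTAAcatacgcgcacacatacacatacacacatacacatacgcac
MITF_ebox_60_GTGA: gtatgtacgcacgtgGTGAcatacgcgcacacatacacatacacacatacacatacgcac
MITF_sebox_60_GTAA: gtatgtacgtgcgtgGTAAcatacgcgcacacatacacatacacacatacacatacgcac
NP_MITF_ebox_60_GTAA: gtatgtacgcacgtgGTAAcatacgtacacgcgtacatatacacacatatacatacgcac
p53_60_GTAA: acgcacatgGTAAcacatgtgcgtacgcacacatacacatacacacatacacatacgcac
Without UV, the ending GTAA gave 45.5 for CPD and 80.5 for 6-4PP in MITF_sebox_60, 42.5 for CPD and 65 for 6-4PP in NP_MITF_ebox_60, and 33 for CPD and 42 for 6-4PP in p53_60. MITF_ebox_59_GTAA, with the same E-box but without the C after the capitals, had 30.5 for CPD and 65 for 6-4PP. The ending GTGA gave 31 for CPD and 66 for 6-4PP in MITF_sebox_60, and 30.5 for CPD and 59 for 6-4PP in MITF_ebox_59. NP_MITF_ebox_60_GTAA shares the E-box, the ending and the next bases with MITF_ebox_60_GTAA and differs nearer the 3′ end. The remaining 670 probes lay between 25 and 45.5 on the CPD array without UV and between 33.5 and 80.5 on the 6-4PP array without UV.

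On the UV arrays these probes did not stand out, with 4182 for CPD and 10519.5 for 6-4PP for GTAA, and 2332.5 for CPD and 11263 for 6-4PP for GTGA. Their UV minus non-UV differences were the lowest of all 672 for CPD, at 3.67 for GTAA and 4.60 for GTGA, followed by 4.87 for TBP_MUT_E60_AGTG. For 6-4PP GTAA had the lowest, at 4.62, followed by 5.86 for MITF_Ex_ebox_59_AACA and 5.88 for MITF_Ex_ebox_59_AGTA, which hold the dipyrimidine alone.

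Over the 672 probes the intensities on both UV arrays correlated with a Pearson r of 0.60 and a Spearman rho of 0.64, and over the 128 with the dipyrimidine alone with 0.67 and 0.68. The points share backbones and numbers of steps, and probes are not replicates of a condition, so these values are descriptions.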

How the data were processed

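Each of the 4 arrays had a deposited table with 1 row per spot, whose values are fluorescence intensity on a linear scale, per the file headers. The deposited normalized intensity equalled the raw intensity of unflagged spots in 100% of them. Cy3 was 1 at every spot, so the amount of DNA was not corrected for. The deposited adjusted intensity was the normalized one times an array median over a local median. The sources used here give neither UV dose nor scanner settings. Flags took 53 of 6720 spots of the 672 probes on the irradiated 6-4PP array and 165 on the 6-4PP array without UV.

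Computed here with Python 3.11.15, pandas 2.3.3 and numpy 2.4.6 were the median unflagged spot per name, its log2, and median differences over pairs matched within a library. No p-value was computed, because each group held 1 array, which limits the precision. "Exceeded the spot SD" means that the size of a pair's difference was larger than the root mean square of its probes' log2 spot SDs. The calculation was tested on simulated data.

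Probes named were the 3 brightest below the ceiling and the 3 dimmest per UV array, the 3 of highest non-UV intensity and of lowest UV minus non-UV value for either antibody, and matched endings of the library with the fewest steps and lowest name. Their counterparts on other backbones were added after values were seen. The probes, lists and comparisons were chosen with earlier results of these data known. Alternatives were the adjusted column, the mean of log2 spots, flagged spots kept, ceiling probes left out, probe length, the dipyrimidine alone, other thresholds and the titles of the 6-4PP arrays.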

Additional observations from a re-analysis of the deposited data

Results flagged for a closer look

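With the edge dipyrimidine alone, TT minus TC had opposite signs with the antibodies, at 0.40 on the irradiated CPD array and -0.75 on the irradiated 6-4PP array. All 4 libraries were positive for CPD and 0 of 4 for 6-4PP. The CPD difference was 0.58 at the left edge and 0.08 at the right edge, where 3 of 4 libraries were positive. The difference between the antibodies was not tested, since each had 1 irradiated array.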

How the results depend on the processing

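No paired analysis was possible because each group held 1 array. Of 175 alternative values for 26 results, 156 kept their direction and stayed within the spread of spots or within 1.5 times a count. For CPD after UV that spread was 0.68, wider than many of the differences, so the count says little of their size. With the dipyrimidine alone, TC minus CT moved from 0.13 to 0.69 and CT minus CC from 0.33 to 0.0042, and both were counted as kept. On the CPD arrays 0 spots of these probes were flagged, so keeping flagged spots could not change their values. Reading the 6-4PP condition from the titles gave UV minus non-UV of -7.86. Left minus right for 6-4PP (-0.02) was -0.43 in 59-base probes, 0.17 in 60-base probes and -0.52 with the dipyrimidine alone, and for CPD (0.04) it was -0.16 in 59-base probes, -0.28 alone and -0.013 with the mean of log2 spots. With the same context at both edges the 6-4PP value of -0.05 became 0.0091 with the adjusted column. Opposite minus listed strand for 6-4PP (-0.28), with the arrangement not matched, was 0.13 in 59-base probes. For 6-4PP, TC minus CC was 0.86 in 59-base probes and 1.14 alone, TC minus CT 1.22 and 1.58, and TT minus CT 0.66 and 0.82, while TT minus TC alone was -0.75. Probes above background numbered 379 on the irradiated CPD array and 5 on the CPD array without UV at 1.5-fold, and 116 on the CPD array without UV and 88 on the 6-4PP array without UV at the 95th percentile of names without a dipyrimidine. Fewer libraries enter the 59-base, 60-base and alone settings by construction, and the cause of these shifts was not tested. The spot SD of 0.68 on the irradiated CPD array limits single probes there, and the ceiling limits the medians of 13 probes on the irradiated 6-4PP array. Of the 6720 spots there, 155 lay at the ceiling, some of them in other probes.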

Other observations

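The lone purine of the ending, on the far side of the pyrimidine, could be changed without changing the dipyrimidine or its neighbours where the dipyrimidine stood alone. A minus G there was 0.12 on the irradiated CPD array and -0.02 on the irradiated 6-4PP array over 64 pairs. The 6-4PP value was smaller than the 5′ difference of 0.70 and the 3′ difference of 0.44 in the same libraries.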
